A study of Mus musculus with 48 samples.

Results

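V580 day 4 cells were mouse embryonic stem cells (ESCs) of the C57BL/6 strain that had been cultured for 4 days with V580, the combination of vitamin C and AM580, a synthetic agonist of the retinoic acid receptors. They were compared with E12.5_GC, cells separated from the gonads of female C57BL/6 embryos of the stage labelled E12.5. The comparison took the 3 libraries labelled V580_D4 and the 3 labelled E12.5_GC, 6 of the 48 samples of the series, in which the induction was designed to turn pluripotent cells into gonadal somatic cell-like cells that can support primordial germ cells. The labels name no transgene or deletion in either group. The study's ESCs did or did not express a β-actin-green fluorescent protein (GFP), and the labels do not say which were used here. They do not say whether the 3 libraries of a group came from separate cultures or embryos. The p-values measure a spread between libraries, which may be technical. It was estimated jointly over 15 libraries, those of later V580 days included, so it can understate the larger spread of E12.5_GC. The ESC line was female and was made by the authors, and the induced cells had never been in a gonad. The study's methods sort dissociated E12.5 gonads with an antibody to SSEA1, a surface marker of germ cells, and take the unbound cells as gonadal somatic cells. The label of E12.5_GC says only that its cells were separated from gonads and does not name this sort, which would remove germ cells and would leave blood, vessel and macrophage cells in.

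The gonad forms as a thickening of the coelomic epithelium on the surface of the mesonephros, and the transcription factors Gata4, Wt1, Nr5a1, Lhx9 and Emx2 are needed for it to grow. In XX embryos the supporting lineage then becomes pre-granulosa cells under Wnt4, Rspo1 and Foxl2, while germ cells enter meiosis next to it. Retinoic acid acts through nuclear receptors of the Rar and Rxr families, and cells exposed to it switch on Hox genes and the Cyp26 enzymes that destroy it.

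Expression was measured by poly-A RNA sequencing and deposited as FPKM, fragments scaled by the length of the gene and by the mapped fragments of the library. The steps between the lowest FPKM values correspond to 19600000 to 27800000 counted fragments in the 6 libraries, if the gene lengths of a mouse annotation are taken. Between 10415 and 10450 genes reached 1 FPKM in the day 4 libraries and between 10593 and 10799 in E12.5_GC. The day 4 libraries lay close to each other, with a root mean square difference of 0.108 to 0.117 on the log2(FPKM + 1) scale. In E12.5_GC, libraries 1 and 2 differed by 0.3, libraries 1 and 3 by 0.345 and libraries 2 and 3 by 0.462. In the E12.5_GC libraries 1, 2 and 3 the haemoglobin genes analysed here, Hba-a1 and Hbb-bs, summed to 4371, 1674 and 1023 FPKM. The other listed haemoglobin genes, the embryonic ones among them, were not analysed here. The heat shock gene Hspa1a stood at 520, 70.5 and 6.4 FPKM there. Library 1 was thus the highest for both, while over all genes it was the nearest to the other 2. Leaving out any 1 of the 6 libraries gave between 2314 and 2398 called genes, against 2354 with all of them.

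A gene was called where limma gave a Benjamini-Hochberg adjusted p below 0.05 and the fold change of FPKM + 1 was at least 2. All adjusted p-values here are of that kind, over 11512 genes tested, and fold changes are differences of log2(FPKM + 1), day 4 minus E12.5_GC, which understate the change of genes at low levels. Of these genes 20.4% were called, 9.13% (1051 genes) higher at day 4 and 11.3% (1303 genes) lower. The median over all genes tested was 0.03. In 67.9% of the genes the 3 libraries of a group did not overlap with those of the other. In bulk libraries, fewer cells of a type and less RNA per cell cannot be told apart.

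**Figure D1:**
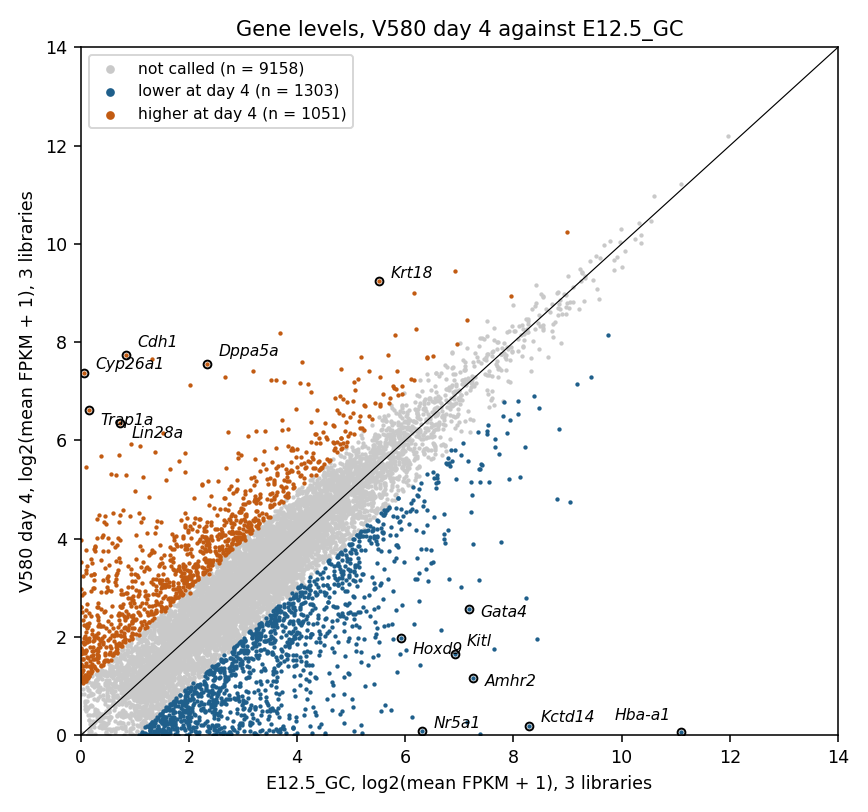
Mean level of each of the 11512 tested genes in E12.5_GC (horizontal) and at V580 day 4 (vertical), both as log2(mean FPKM + 1) over 3 libraries; coloured points were called, grey points were not, and the line marks equal levels. Cyp26a1, Cdh1 and Trap1a lie along the upper left edge, with high levels at day 4 only, and Nr5a1, Kctd14 and Hba-a1 lie along the lower right edge.

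The genes that were furthest below the gonad included genes of its supporting cells and of blood. Kctd14, a gene of the fetal supporting cells (chr7:97451323-97459557, GRCm38), stood at 0.0342, 0.126 and 0.26 FPKM at day 4 and at 294, 340 and 297 FPKM in E12.5_GC. It was lower at day 4 by a log2 fold change of -8.10 ± 0.08 (SE, n = 3 per group, adjusted p = 5.52e-18). Its day 4 levels were near 0, and no day 4 library came near any E12.5_GC library. Ifitm1, a membrane protein of the interferon-induced family, had 3.09, 3.32 and 2.33 FPKM against 309, 444 and 283 FPKM (-6.45). Sparcl1, a secreted matrix protein, was lower by -5.75. Among the 10 largest falls were also Nr5a1, Amhr2, Kitl and Lhx9, described next, and the haemoglobin genes Hba-a1 and Hbb-bs.

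The transcription factors of the gonadal ridge were mostly lower at day 4. Of the 20 listed, 16 were tested, 10 were lower and 2 higher, with a median of -2.06. Six4 (1.90), a homeobox factor named after its values were seen, was among the higher genes, and without E12.5_GC library 2 only 1 gene was higher. Gata4 (chr14:63198922-63271692, GRCm38), which is needed to start the ridge, stood at 5.23, 4.75 and 4.84 FPKM at day 4 and at 135, 147 and 148 FPKM in E12.5_GC. The gonadal mean was 29.0-fold the day 4 mean, a log2 fold change of -4.60 ± 0.06 (SE, n = 3 per group, adjusted p = 6.44e-17). The groups were far apart and each was tight.

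Nr5a1, the nuclear receptor that directs steroidogenic and supporting cell fate (chr2:38692656-38714542, GRCm38), was at 0.0518, 0.0667 and 0.0492 FPKM at day 4 against 71.7, 95.1 and 67.8 FPKM (-6.21, adjusted p = 5.03e-16). Lhx9, a LIM homeobox factor of the ridge, was at 0.0185, 0.0426 and 0.0176 FPKM against 38.4, 31.6 and 37.2 FPKM (-5.16). Both factors were thus practically without transcripts at day 4, whereas Gata4, Gata6, Emx2 and Wt1 had some. Emx2, needed for the urogenital ridge, stood at 1.87, 2.17 and 2.26 FPKM against 41.7, 38.8 and 52.5 FPKM (-3.86). Wt1, the Wilms tumour factor of the coelomic epithelium, was the nearest of the 4, with 23.7, 23 and 21.6 FPKM against 67, 64.5 and 86 FPKM (-1.62, adjusted p = 3.11e-10). Zfpm2, the cofactor of Gata4, was lower by -2.69. The orphan nuclear receptor genes Nr2f1 and Nr2f2 and the Polycomb gene Cbx2 were not called: Nr2f1 had 10.3, 11.6 and 11.3 FPKM at day 4 and 5.61, 4.8 and 5.57 FPKM in E12.5_GC, a log2 fold change of 0.93 that is under the fold threshold and 1.04, which passed, with a pseudocount of 0.1 FPKM.

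**Figure D2:**
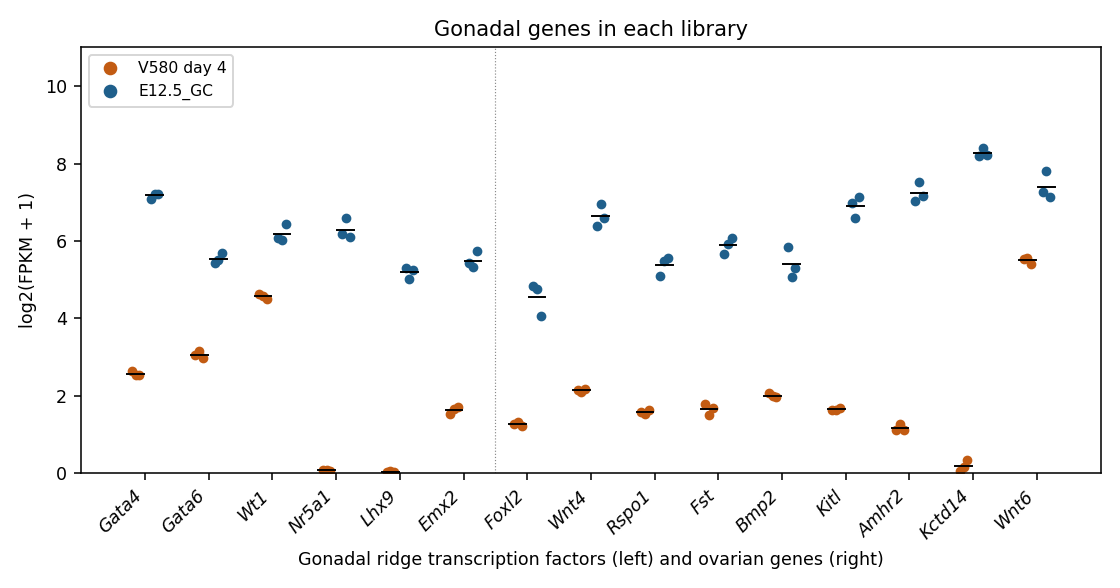
Level of 15 gonadal genes in each library as log2(FPKM + 1), with V580 day 4 in orange and E12.5_GC in blue; each point is 1 library and each bar the mean of 3. In all 15 genes the groups are separated, Nr5a1, Lhx9 and Kctd14 lie at the floor at day 4, and Wt1 lies nearest to the gonadal level.

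None of the genes of ovarian determination was higher at day 4. Of 20 listed, 16 were tested and 13 were lower, with a median of -2.95. Foxl2, the forkhead factor that maintains granulosa identity (chr9:98955288-98958543, GRCm38), stood at 1.42, 1.5 and 1.32 FPKM at day 4 and at 27.6, 26.1 and 15.7 FPKM in E12.5_GC (-3.29 ± 0.15, adjusted p = 5.76e-11). The E12.5_GC library 3 was the lowest of its group and still far above day 4. Wnt4, the ligand that opposes testis formation, had 3.45, 3.25 and 3.54 FPKM against 82.7, 124 and 94.9 FPKM (-4.50), and Rspo1, which amplifies Wnt signals, had 2.02, 1.88 and 2.11 FPKM against 33.1, 44 and 45.9 FPKM (-3.79). Their downstream gene Fst, the activin antagonist follistatin, was lower by -4.23.

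Other genes of this list encode ligands and a receptor. Kitl, the ligand on which primordial germ cells depend for survival, stood at 2.09, 2.12 and 2.22 FPKM against 124, 94.7 and 139 FPKM (-5.24, adjusted p = 6.64e-15). Bmp2, a ligand of the fetal ovary, had 3.2, 2.96 and 2.89 FPKM against 56.1, 32.6 and 38.1 FPKM (-3.39). Amhr2, the receptor of anti-Müllerian hormone, had 1.16, 1.43 and 1.17 FPKM against 129, 184 and 141 FPKM (-6.07). Every day 4 value of the 3 genes was below every gonadal value. The genes of this list that were not called were Msx1 (-0.99), Fgfr2 (-0.55) and Irx5 (0.08). Msx1, a homeobox gene, lay so near the fold threshold that it passed without day 4 library 2 (-1.02) or E12.5_GC library 3 (-1.18).

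The genes of retinoic acid signalling went the other way as a group. Of 27 listed, 19 were tested, 10 were higher at day 4 and 3 lower, with a median of 1.01. Cyp26a1, the enzyme that oxidises retinoic acid (chr19:37697798-37701536, GRCm38), showed the largest rise of all named genes, with 155, 171 and 168 FPKM at day 4 and 0.0406, 0.0481 and 0.0288 FPKM in E12.5_GC (7.32 ± 0.06, adjusted p = 1.79e-18). Its paralogue Cyp26b1, which in the testis keeps germ cells out of meiosis, stood at 66.8, 72.9 and 69.4 FPKM against 2.81, 1.21 and 1.56 FPKM (4.67, adjusted p = 5.98e-13). Both degrading enzymes were thus high in every day 4 library, and in the gonad Cyp26a1 was near 0 and Cyp26b1 at a few FPKM.

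The promoters of Cyp26a1 and Rarb are shown because each holds the classical retinoic acid receptor motif. The search took 2 half-sites in direct repeat with 5 bases between them, on both strands of the 250 bases before each RefSeq start of a gene. Each half-site was AGGTCA, in which G could stand in place of the first letter and T in place of the third. The sequences are from RefSeq on GRCm38.p6, read 5′ to 3′ on the strand of the gene, and capitals mark the motif, which in Cyp26a1 lies on the opposite strand.
Cyp26a1, chr19:37697558-37697807, plus strand: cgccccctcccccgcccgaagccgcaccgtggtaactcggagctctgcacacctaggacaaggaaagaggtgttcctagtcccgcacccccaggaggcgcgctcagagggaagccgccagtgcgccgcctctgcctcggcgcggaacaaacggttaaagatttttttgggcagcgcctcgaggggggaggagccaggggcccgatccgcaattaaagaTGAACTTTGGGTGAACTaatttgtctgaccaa
Rarb, chr14:16575477-16575726, minus strand: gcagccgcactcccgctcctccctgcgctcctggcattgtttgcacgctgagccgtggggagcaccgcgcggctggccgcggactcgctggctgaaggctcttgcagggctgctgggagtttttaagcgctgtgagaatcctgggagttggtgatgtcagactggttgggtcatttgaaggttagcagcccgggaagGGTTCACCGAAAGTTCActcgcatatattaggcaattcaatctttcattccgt
The motif lay 32 to 16 bases before the start of Cyp26a1 and 53 to 37 bases before a start of Rarb. That start of Rarb lies inside the annotated span of the gene. The motif was found in 29 of 32851 promoters (0.0883%). Counted by gene, it was in 3 of the 9095 tested genes with a promoter (0.033%). Of the 19 tested genes of the list, 14 had a promoter and 2 of these had the motif. With 2 bases or 1 base between the half-sites it was in 0.174% and 0.164% of all promoters and in none of the 14 genes. A match is a description of the letters in this window, not a site shown to be bound.

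Rarb, the receptor gene that retinoic acid itself induces, stood at 6.92, 7.15 and 7.17 FPKM at day 4 and at 1.22, 0.64 and 0.65 FPKM in E12.5_GC (2.15 ± 0.10, adjusted p = 6.37e-11). Crabp2, which carries retinoic acid to the nucleus, had 148, 153 and 130 FPKM against 15.2, 19.8 and 11.7 FPKM (3.15), and Meis2, a homeobox cofactor of Hox proteins, was higher by 2.05. The receptor genes Rara, Rxra and Rxrb were not called, at -0.14, -0.92 and -0.10. The synthesis of retinoic acid was on the side of the gonad: Aldh1a2, the main enzyme of the embryo for this step, stood at 10.5, 10.4 and 10.6 FPKM at day 4 against 89.6, 93.4 and 86.8 FPKM (-2.98, adjusted p = 1.28e-14). Of the genes described here, both Cyp26 enzymes, Crabp2 and Rarb were thus higher at day 4 and Aldh1a2 lower. Cyp26a1 was already at a mean of 121 FPKM after 48 h of V580 and at 0.86 FPKM in the 48 h control (n = 2 each), while Cyp26b1 was at 0.493 and 0.0637 FPKM there. Comparing day 4 with day 6 of V580, Cyp26a1 and Crabp2 were higher at day 4 and Aldh1a2 was lower, with day 6 means of 46.9, 22.7 and 70 FPKM.

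**Figure D3:**
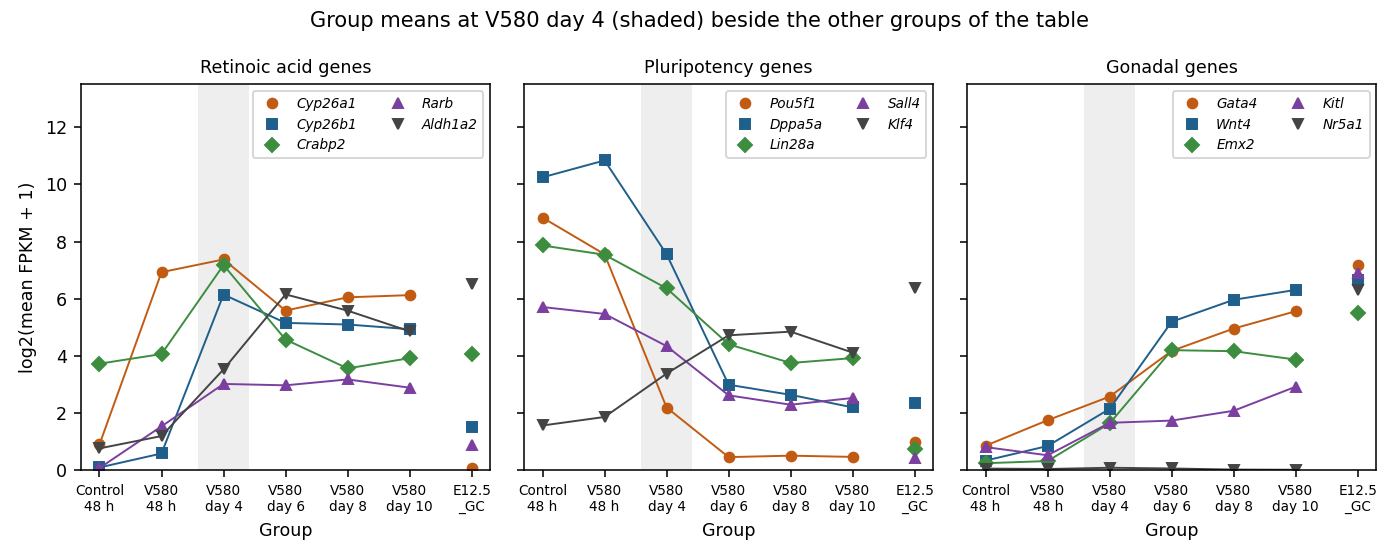
Mean levels of 15 genes as log2(mean FPKM + 1) in the 48 h control, 48 h of V580 (2 libraries each), V580 days 4, 6, 8 and 10 and E12.5_GC (3 libraries each), with day 4 shaded; lines join the groups in culture and no test is drawn. Cyp26a1, Cyp26b1 and Crabp2 have their highest mean of these groups at day 4, and Nr5a1 stays at the floor in culture. At day 4 the pluripotency genes lie between their levels at 48 h of V580 and day 6, with Klf4 rising and the others falling.

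Hox genes, whose order along the chromosome matches their order along the body axis, did not move as 1 block. Of 39 listed, 17 were tested, 10 were higher at day 4 and 5 lower, with a median of 1.54. All 6 tested genes of paralogue groups 3 to 5 were higher at day 4, and of the 11 tested genes of groups 6 to 10, 4 were higher and 5 lower. All 7 tested HoxB genes were higher and all 3 tested HoxD genes lower, while the 6 tested HoxC genes were divided, with 2 higher, 2 lower and 2 not called. Hoxb5 stood at 21.5, 22.6 and 19.7 FPKM at day 4 and at 0.711, 0.566 and 0.678 FPKM in E12.5_GC (3.75 ± 0.08, adjusted p = 1.89e-14). Hoxb4 had 26.7, 28.2 and 28 FPKM against 1.71, 1.25 and 1.19 FPKM (3.59), and Hoxc5 had 53.5, 55.5 and 49.9 FPKM against 6.64, 6.72 and 6.02 FPKM (2.86).

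The posterior HoxD genes showed the reverse. Hoxd9 was at 2.94, 3.18 and 2.64 FPKM at day 4 and at 58.7, 67 and 52.5 FPKM in E12.5_GC (-3.94 ± 0.11, adjusted p = 1.57e-13). Hoxd10 was at 0.0726, 0.0445 and 0.0919 FPKM against 9, 8.1 and 6.16 FPKM (-3.02). Within paralogue group 9 the clusters differed in direction, since Hoxb9, named after its values were seen, was called higher and Hoxd9 lower. Hoxc8 and Hoxc9 were not called, at -0.71 and 0.18. Of the listed Hox genes 19, most of HoxA among them, were not analysed here, and 3 more were under the filter on low values.

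**Figure D4:**
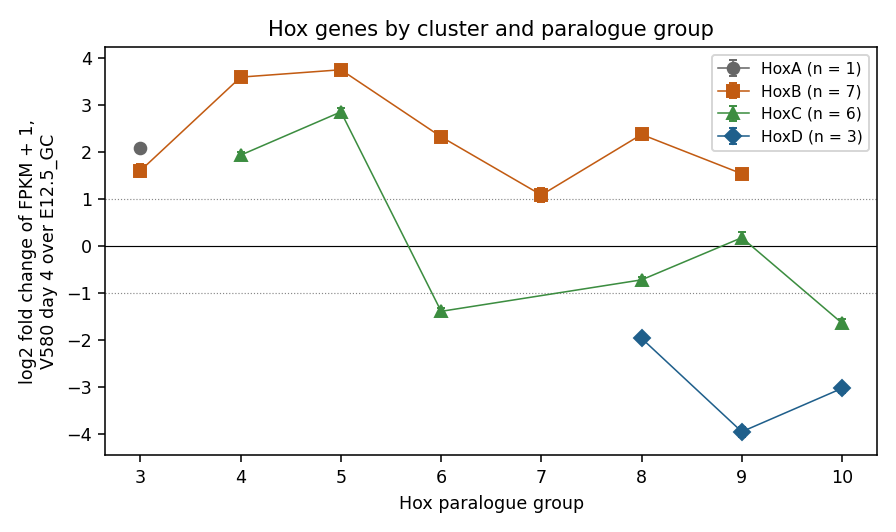
Log2 fold change of FPKM + 1, V580 day 4 over E12.5_GC, of the 17 tested Hox genes by paralogue group, with 1 line per cluster; bars are standard errors from limma and dotted lines mark 2-fold. Groups 3 to 5 lie above 2-fold, HoxB stays above it through group 9, and HoxD lies below it.

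Transcripts of the pluripotent state were still present at day 4. Of 24 listed genes, 15 were tested, 12 were higher than in E12.5_GC and 2 lower, with a median of 2.22. Dppa5a, a small RNA-binding protein of pluripotent cells, stood at 202, 178 and 181 FPKM at day 4 against 4.13, 6.54 and 1.49 FPKM (5.36 ± 0.26, adjusted p = 1.05e-10). Lin28a, which blocks the maturation of let-7 microRNAs, had 80.2, 83.5 and 80 FPKM against 0.802, 0.619 and 0.537 FPKM (5.64). Sall4, a zinc finger factor of ESCs and germ cells, had 19.8, 19.7 and 18.1 FPKM against 0.514, 0.193 and 0.341 FPKM (3.91), and Zfp42, a marker of naive ESCs, was higher by 3.05. In each of these genes every day 4 library was far above every gonadal one.

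The core factors were much nearer to the gonad. Pou5f1 (Oct4), which ESCs cannot lose without differentiating, stood at 3.99, 3.34 and 3.34 FPKM at day 4 and at 1.15, 1.31 and 0.477 FPKM in E12.5_GC (1.23, adjusted p = 7.92e-07). Its mean was 187 FPKM after 48 h of V580 and 0.367 FPKM at day 6. Nanog was under the filter on low values, with 1.16, 0.811 and 1.19 FPKM against 0.626, 0.494 and 0.547 FPKM. Both factors were thus at a few FPKM or less in either group. The 2 members of the list that were lower at day 4 were Klf2 and Klf4, which are also immediate response factors and, for Klf2, an endothelial factor. Klf2 had 7.42, 6.76 and 7.07 FPKM against 235, 117 and 36.5 FPKM (-3.65), the same order of the E12.5_GC libraries as for Hspa1a, and Klf4 had 8.53, 9.19 and 10.4 FPKM against 101, 66 and 80.5 FPKM (-2.99). The part of the spread between E12.5_GC libraries in these values was not tested.

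Genes of the formative state, through which ESCs pass on leaving naive pluripotency, were also above the gonad: 3 of 4 tested of 18 listed were higher. Fgf5, its standard marker, stood at 12.7, 12.7 and 11.9 FPKM against 0.201, 0.222 and 0.184 FPKM (3.48). The de novo methyltransferase Dnmt3b was higher by 1.31, and its cofactor Dnmt3l, which has no catalytic activity of its own, stood at 14.4, 12.9 and 10.9 FPKM against 0.0602, 0.0856 and 0.0684 FPKM (3.67). Dnmt3a (-0.61), Dnmt1 (0.58) and Uhrf1 (0.86) were not called. Of the 18 tested genes of DNA methylation and of vitamin C transport or use, 4 were higher and 1 lower, or 2 lower without day 4 library 1.

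Several germ cell genes were higher in the induced cells than in the gonadal preparation, from which the SSEA1 sort, if it was applied to these libraries, had removed the germ cells. The part of that sort in these differences was not tested. Of 16 listed, 10 were tested and 6 were higher, none lower, with a median of 1.45. Without E12.5_GC library 3, Nanos3, a gene of germ cell survival that otherwise did not pass (-0.75), was lower by -1.06. Ddx4, the RNA helicase of the germ line, stood at 9.22, 8.98 and 9.65 FPKM at day 4 and at 0.561, 0.608 and 0.661 FPKM in E12.5_GC (2.68 ± 0.07, adjusted p = 1.53e-13). Dazl, the RNA-binding protein that licenses germ cells, had 5.02, 4.7 and 5.65 FPKM against 0.537, 0.904 and 0.575 FPKM (1.88). Both were also present after 48 h of the control culture, at means of 12.8 and 3.18 FPKM, and of the 6 genes Pou5f1 and Dppa4 are pluripotency genes as well. Summed over the list, the E12.5_GC libraries came to between 8.88 and 13.7 FPKM and the day 4 libraries to between 42.1 and 44.5 FPKM. Of the meiotic genes, 5 of 15 listed were tested, and only Dmc1, the meiotic recombinase, was called, with a rise of 1.27. Sycp3, of the synaptonemal complex, had 1.32, 0.671 and 0.726 FPKM against 0.342, 0.135 and 0.242 FPKM (0.61, not called, and 1.56, called, with a pseudocount of 0.1 FPKM). Rec8, the meiotic cohesin, stood at the fold threshold with 0.99 and passed without E12.5_GC library 2 (1.11) or day 4 library 3 (1.01).

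Epithelial genes were higher at day 4 almost throughout their list. Of 25 listed junction and keratin genes, 19 were tested and 18 were higher at day 4, with a median of 3.07. Cdh1, the E-cadherin of epithelial junctions (chr8:106603351-106670246, GRCm38), stood at 228, 207 and 205 FPKM at day 4 and at 1.58, 0.457 and 0.29 FPKM in E12.5_GC (6.98 ± 0.18, adjusted p = 8.35e-14). The tight junction gene Cldn4 had 212, 203 and 192 FPKM against 2.04, 1.29 and 1.1 FPKM (6.38), and the adhesion gene Epcam had 155, 159 and 154 FPKM against 6.33, 5.25 and 4.48 FPKM (4.64). The lowest day 4 library was far above the highest gonadal library in all 3 genes. Cldn7 (5.01), Cldn3 (4.67) and the protease inhibitor Spint1 (4.48) were higher too, and Jup, plakoglobin, was the 1 member not called (-0.03). Perp, a desmosome protein, was among the 10 largest rises at 5.31. Cdh1 and Epcam were already at means of 194 and 211 FPKM in the 48 h control.

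Mesenchymal and matrix genes were on the side of the gonad. Of the 20 interstitial and mesenchymal markers, all tested, 13 were lower and 2 higher, with a median of -1.20. Pdgfra, the receptor that marks interstitial progenitors, stood at 3.07, 3.01 and 2.88 FPKM against 18, 13.2 and 19.5 FPKM (-2.15). Vim, vimentin, had 53.7, 52.3 and 50.8 FPKM against 198, 248 and 186 FPKM (-1.98). The 2 members that were higher at day 4 were genes of the contractile cytoskeleton: Acta2 had 205, 189 and 183 FPKM against 14.6, 19.9 and 13.3 FPKM (3.53), and Cnn1 was higher by 3.59. Acta1, skeletal actin, was among the 10 largest rises at 5.02.

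Of 32 listed collagen chain genes, 27 were tested, 15 were lower at day 4 and 3 higher. All 3 chains of collagen VI named here were low: Col6a1 stood at 3.11, 2.76 and 2.85 FPKM against 51.5, 57.5 and 51.7 FPKM (-3.80), with Col6a2 at -3.68 and Col6a3 at -3.46. Col3a1 was lower by -3.04 and Col15a1 by -3.21. Chains of the basement membrane collagen IV did not pass, at -0.31 for Col4a1, 0.12 for Col4a2 and -0.89 for Col4a5, which passed at -1.08 without E12.5_GC library 2. Col2a1, the cartilage collagen, was higher at day 4, with 21.1, 22.4 and 19.7 FPKM against 1.32, 0.706 and 0.591 FPKM (3.58).

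The mesothelial markers, which label the surface epithelium from which the ridge grows, were mixed: of 9 tested, 3 were higher and 2 lower. Krt19 stood at 158, 144 and 131 FPKM against 12.4, 16.2 and 9.06 FPKM (3.45), and Lrrn4 and Msln were higher by 1.43 and 1.32. Upk1b, a uroplakin, was lower by -1.96, and Upk3b, another, had 22.5, 22.6 and 22.4 FPKM against 42.5, 47.4 and 39.4 FPKM (-0.91, not called). Bnc1 (-0.73) and Igfbp5 (-0.97) were not called either. Igfbp5 passed at -1.18 without E12.5_GC library 2 and at -1.01 without day 4 library 1.

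Regulators of extraembryonic endoderm, the yolk sac lineage that shares Gata4 and Gata6 with the gonad, also differed. Of 26 listed, 22 were tested, 8 were higher at day 4 and 5 lower, with a median of 0.45, and without E12.5_GC library 1 only 3 were lower. Foxa2, a forkhead factor of endoderm, stood at 14.1, 12.2 and 12 FPKM at day 4 against 0.44, 0.108 and 0.0215 FPKM (3.55, adjusted p = 3.65e-13). The endocytic receptors Lrp2 and Cubn were higher by 2.91 and 2.14, and Pth1r by 1.64. Gata6 went with Gata4, with 7.23, 7.93 and 6.91 FPKM against 41.8, 44.2 and 50.3 FPKM (-2.47). Sparc (-0.25), Apoe (0.47) and Col4a1 were not called. Of 6 tested trophoblast and placental genes 4 were higher, led by Trap1a with 98.3, 99 and 96.2 FPKM against 0.0611, 0.217 and 0.0434 FPKM (6.48). Peg10, an imprinted retrotransposon-derived gene of the placenta, had 679, 664 and 743 FPKM against 119, 77.3 and 162 FPKM (2.59), and Gata3 and Krt7 were higher by 1.81 and 1.46. In the 48 h control Trap1a, Peg10 and Lrp2 were already at means of 56.8, 123 and 9.75 FPKM. Foxa2, Cubn, Pth1r, Gata3 and Krt7 were at 0.131, 0.107, 1.82, 0.635 and 0.977 FPKM there.

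Most markers of blood, vessels and macrophages were lower at day 4. Of 15 listed erythroid genes 4 were tested and all were lower. Hba-a1, Hbb-bs, Alas2, Pecam1, Emcn, C1qa, C1qb, C1qc, Tyrobp and Fcer1g had means under 1 FPKM on every V580 day. Such genes passed the filter on low values through E12.5_GC, so the counts of lower genes in this paragraph partly follow from the filter. Hba-a1, an alpha globin that shares its sequence with a near-identical copy, stood at 0.108, 0.0498 and 0 FPKM at day 4 and at 4045, 1559 and 967 FPKM in E12.5_GC (-10.76), and Alas2, the erythroid haem synthesis enzyme, was lower by -4.68. Of 11 tested endothelial markers 9 were lower, and Cdh5, VE-cadherin, had 0.199, 0.144 and 0.208 FPKM against 35, 20.4 and 29.1 FPKM (-4.59). The 2 endothelial markers that were not called were Egfl7, with 5.43, 5.58 and 5.58 FPKM against 8.02, 8.45 and 7.15 FPKM (-0.44), and Flt1 (-0.90), which passed at -1.09 without E12.5_GC library 2. Of 11 tested macrophage and mast cell markers 9 were lower, and the complement gene C1qb had 0.121, 0.0371 and 0 FPKM against 12.4, 15.7 and 7.28 FPKM (-3.55). Cd68, a lysosomal protein of macrophages, was not called, with 6.78, 6.43 and 6.67 FPKM at day 4 against 2.78, 2.85 and 3.37 FPKM (0.93, and 1.12, called higher, with a pseudocount of 0.1 FPKM), nor was the receptor gene Kit (-0.38).

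Summed over each list, erythroid genes came to 0.818 to 1.25 FPKM at day 4 and 1041 to 4440 FPKM in E12.5_GC, endothelial markers to 20.3 to 21.3 against 121 to 173 FPKM, and macrophage and mast cell markers to 9.15 to 10.1 against 39.3 to 71.6 FPKM. Of the 11 endothelial markers, 5 had a day 4 mean of at least 1 FPKM, Eng at 7.03, Egfl7 at 5.53, Tie1 at 3.32, Plvap at 2.28 and Kdr at 1.03 FPKM, whereas Cdh5, Pecam1 and Emcn were at most at 0.208 FPKM in any day 4 library. Markers of blood, vessels and macrophages were thus measured in every E12.5_GC library. The part of these cells in the differences of other gene lists was not tested. With the libraries rescaled to a common sum without haemoglobin (Hba-a1 and Hbb-bs only), 2333 genes were called.

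Immediate early genes, which cells switch on within minutes of a stimulus, were lower at day 4 in 14 of 17 tested, with a median of -1.75. Fos stood at 155, 158 and 156 FPKM against 881, 724 and 472 FPKM (-2.09), and Nr4a1 at 7.9, 8.05 and 8.37 FPKM against 96.4, 141 and 95.4 FPKM (-3.60). Egr2 and Junb were lower by -3.09 and -2.36. The list also holds 2 near-identical heat shock genes, and Hspa1a (-4.26) and Hspa1b (-3.86) had the widest spread, with SEs of 0.95 and 0.88. Summed over the list, the day 4 libraries lay between 823 and 849 FPKM and the E12.5_GC libraries 1, 2 and 3 at 5024, 3408 and 2168 FPKM. The part of this in other results was not tested.

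Among the signalling pathways, Wnt components differed in both directions. Of 44 listed, 38 were tested, 7 were higher at day 4 and 13 lower, with a median of -0.07. The ligands Wnt5a and Wnt5b, of the non-canonical branch, were lower by -2.49 and -2.28, beside Wnt4. Wnt7b was higher, with 7.75, 6.34 and 6.86 FPKM against 0.353, 0.0783 and 0.104 FPKM (2.76), and so was the receptor Fzd6 (2.42). Ctnnb1, beta-catenin (0.29), the transcription factor Tcf7 (0.33) and the antagonist Sfrp1 (-0.73) were not called.

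Of 29 tested genes of BMP, activin and TGF-beta signalling, 9 were lower and 3 higher. The inhibin and activin subunits were gonadal: Inhbb stood at 0.454, 0.361 and 0.412 FPKM against 24.9, 26.8 and 30.2 FPKM (-4.32, adjusted p = 1.98e-15), and Inha was lower by -2.60. Bmp4, the ligand that induces mesoderm and germ cells, was higher, with 12.7, 13 and 12.9 FPKM against 2.67, 2.24 and 1.93 FPKM (2.08), in contrast to Bmp2. The BMP response genes Id1 (-0.68), Id2 (-0.46) and Id3 (-0.70) did not pass. Of 21 tested Hedgehog and Notch genes, 6 were lower and 4 higher, and without E12.5_GC library 2 only 2 were higher. The Hedgehog co-receptor Boc was lower by -2.91, and the Notch genes Hey1, Heyl, Dll4 and Notch4 by between -2.03 and -1.67. Smo (-0.70), Cdon (0.87) and Hes1 (-0.70) were not called. Cdon passed at 1.13 without E12.5_GC library 3. Without E12.5_GC library 1, Hes1 passed at -1.18, its E12.5_GC values being 27.7, 48.7 and 120 FPKM.

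Of 21 tested Hippo genes 5 were higher and none lower. Ankrd1, a target of the Yap and Taz coactivators, stood at 4.33, 4.1 and 4.75 FPKM against 0.143, 0.0242 and 0.231 FPKM (2.25). The scaffold gene Ajuba (1.91), the partner factors Tead1 (1.65) and Tead4 (1.28) and Amotl2 (1.26) were higher. Tead2 (0.03), Wwtr1 (-0.64) and the target Cyr61 (-0.84) were not called, and Cyr61 passed at -1.09 without E12.5_GC library 2.

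Genes of cholesterol synthesis and uptake were higher at day 4 in 15 of 22 tested and lower in none, with a median of 1.39. Msmo1, a sterol oxidase, stood at 24.1, 22.7 and 21.8 FPKM against 6.58, 5.76 and 4.56 FPKM (1.86, adjusted p = 8.06e-11). The synthesis genes Fdft1 (1.68), Dhcr7 (1.67), Tm7sf2 (1.53) and Sc5d (1.53) were higher. The groups did not overlap in 21 of the 22, beside 67.9% of all genes tested. Srebf2, the transcription factor of the pathway, was at 0.95, under the fold threshold.

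**Figure D5:**
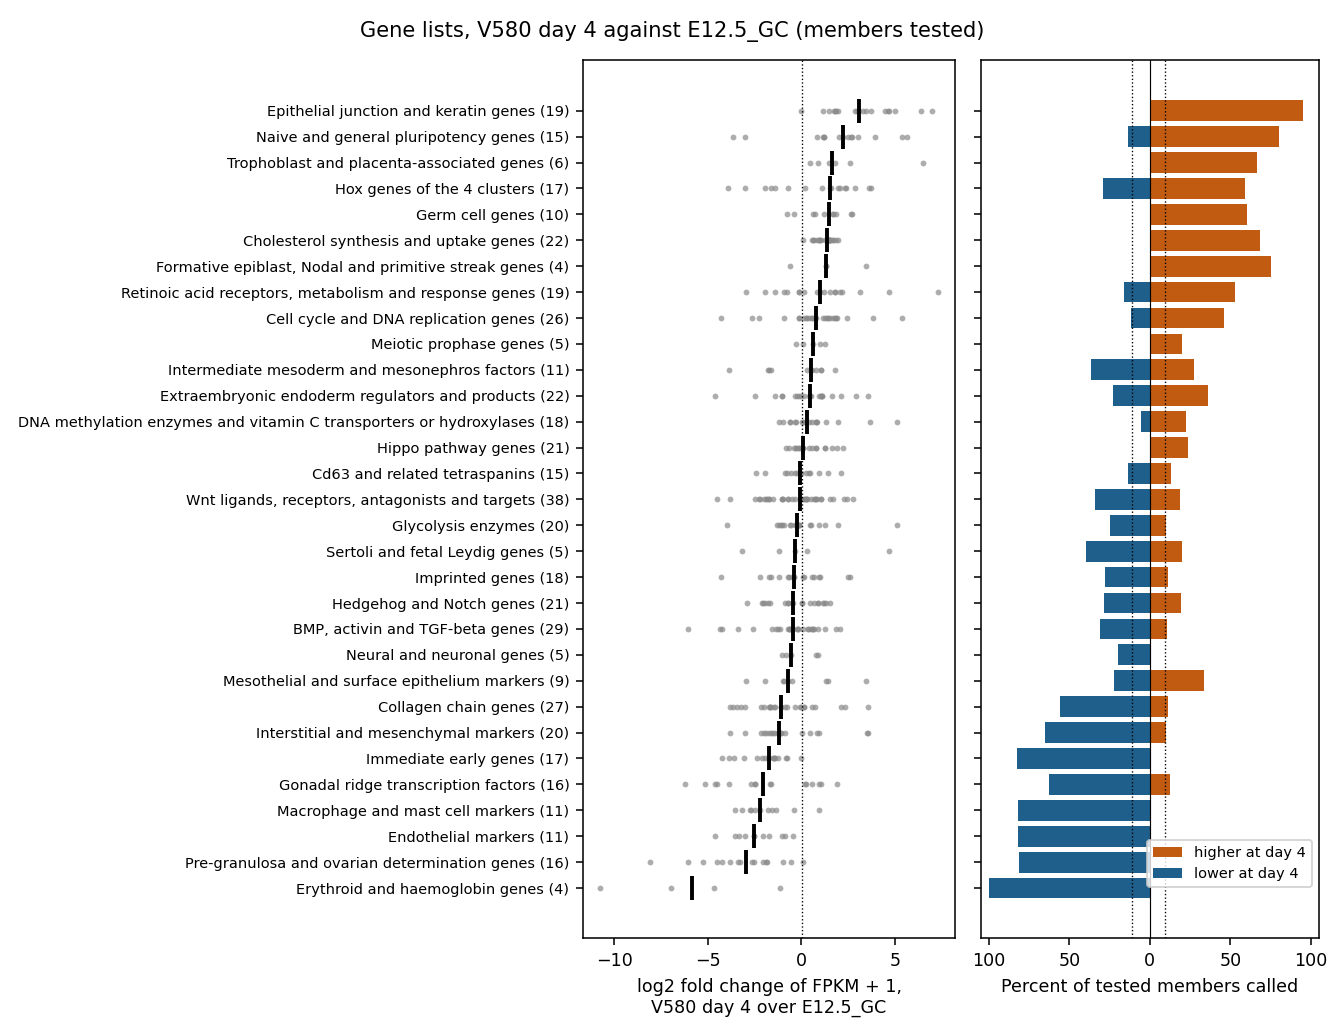
Left, log2 fold change of FPKM + 1, V580 day 4 over E12.5_GC, of each tested member (points) and the median (bars) of 31 gene lists, the number tested in brackets; right, the percentage of tested members called higher or lower. Dotted lines give the values over all 11512 genes, a median of 0.03 and 9.13% and 11.3% called; epithelial and pluripotency lists lie at the top and ovarian, endothelial and erythroid lists at the bottom.

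Against day 6 of the same induction, 585 genes (5.08%) were called, 192 higher at day 4 (1.67%) and 393 lower (3.41%). Of the 16 tested gonadal ridge factors, 7 were lower at day 4 than at day 6 and none higher. Wnt4 had day 4 and day 6 means of 3.41 and 35.6 FPKM, Emx2 of 2.1 and 17.3 FPKM and Gata4 of 4.94 and 17 FPKM, all 3 called, beside gonadal means of 100.5, 44.4 and 144 FPKM. Nr5a1 (0.0559 and 0.0377 FPKM), Lhx9 (0.0262 and 0.126 FPKM) and Kitl (2.14 and 2.32 FPKM) were not called between the days. Of the 15 tested pluripotency genes, 8 were higher at day 4 than at day 6 and 2 lower. Of the 19 tested epithelial genes 1 was higher at day 4 (Cdh1, day 6 mean 83 FPKM) and none lower, about the share over all genes, with a median of 0.38 for day 4 minus day 6. Epcam, with a day 6 mean of 84.9 FPKM, was at 0.87, under the fold threshold.

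The gonadal side was also measured in 2 count libraries of E12.5 gonadal cells deposited apart from the FPKM table. Of the 1303 genes lower at day 4, 99.1% had at least 1 CPM (count scaled to a common library total) in both. The share was 81% for the 1051 higher genes and 97.4% for the genes not called. A gene called lower had to reach about 1 FPKM in E12.5_GC. Its detection here thus follows largely from the call and adds no separate support. Kctd14 had 1591 and Amhr2 753 CPM in the first of them, and Cyp26a1 had 0.0512 and Cyp26b1 13.99 CPM. No test was made between the 2 kinds of table, since they were normalised separately.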

How the data were processed

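Poly-A RNA libraries of V580 days 4, 6, 8 and 10 and of E12.5_GC (3 each) were analysed, with 48 h libraries as values only. The authors deposited FPKM for 13682 genes. Their processing notes name Trim Galore, FastQC, HISAT2, SAMtools, featureCounts, RSEM and mm10, and which tool made the FPKM is not given in the sources used here. For 2 further E12.5 libraries the authors deposited raw gene counts, from which CPM were computed. Of 31 FPKM columns, 12 were not used, nor were the single-cell and germ cell count files. The study's DESeq2 needs counts, so limma 3.58.1 in R 4.3.3 (limma-trend) was fitted to log2(FPKM + 1) of 15 libraries (10 residual degrees of freedom). Genes needed at least 1 FPKM in at least 3 libraries. A gene under this level in the V580 libraries passed only through E12.5_GC, and its call as lower follows largely from the filter. Adjusted p-values are Benjamini-Hochberg, below 0.05 with at least 2-fold for a call. On simulated data of this comparison, 198 of 198 changed genes were recovered (100%) with 0 false calls among 11031 genes. The simulation gave all groups the same spread in each gene and planted only changes above the fold threshold. It thus does not cover the larger spread of E12.5_GC or genes near the threshold.

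The members and gene lists were chosen with earlier results of these data known. Lists were described by counts and medians, with no set test. Named genes were those named in the study's text, the 10 largest rises and falls among called genes of at least 5 FPKM whose groups did not overlap, and in each list up to 6 called members by size and up to 3 not called by level. A few genes that this rule names are not reported here.

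Same-numbered day 4 and E12.5_GC libraries had deviations from their group means that correlated at 0.115, 0.295 and 0.344 across genes. Pairs with different numbers lay between -0.375 and 0.131. The highest of these, day 4 library 1 with E12.5_GC library 2, was above the 0.115 of the libraries numbered 1. The pairs follow the replicate numbers, and the labels do not tie a culture to an embryo preparation. The blocked fit is an alternative. Other alternatives were the pseudocount, the filter, the fold threshold, the scaling (common sum with and without haemoglobin, median ratio, quantile), the 6 libraries alone, a robust prior and leaving out each library.

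The depth behind the FPKM is not given in the sources used here and was estimated from the steps between their values with GENCODE vM21 gene lengths (GRCm38, 99.8% of symbols matched), which also gave gene positions. Promoters are RefSeq on GRCm38.p6. FPKM divides by gene length and by mapped fragments, so a few abundant transcripts such as haemoglobin lower all other values of a library.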

Additional observations from a re-analysis of the deposited data

Results flagged for a closer look

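Of all genes tested, 2 were called in opposite directions against E12.5_GC on successive days of V580, below the gonad at day 4 and above it at day 6. The day 4 to day 6 contrast of limma equals the difference of the 2 fold changes by which these genes were picked. Its size and adjusted p thus follow from that choice and add no separate support. Ptn, the heparin-binding growth factor pleiotrophin, stood at 16.9, 18.8 and 18.6 FPKM at day 4 and at 40.6, 42.2 and 36.7 FPKM in E12.5_GC, with a day 6 mean of 102 FPKM. Its log2 fold change was -1.09 at day 4 and 1.33 at day 6 against the gonad, and -2.42 between the days (adjusted p = 8.88e-12). Lmcd1, a LIM domain protein that binds Gata factors, had 0.203, 0.35 and 0.313 FPKM at day 4 against 2.41, 2.17 and 1.18 FPKM in E12.5_GC, and a day 6 mean of 5.59 FPKM. It was at -1.16 at day 4, at 1.20 at day 6 and at -2.35 between the days (adjusted p = 2.84e-09). The 2 comparisons with the gonad share the E12.5_GC libraries.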

How the results depend on the processing

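Against the 2354 genes called with the settings used (1051 higher and 1303 lower), the adjusted p alone, with no fold threshold, called 8238 genes (4284 higher and 3954 lower) and at least 4-fold called 659 (252 higher and 407 lower). For day 4 against day 6, where 585 genes were called, these thresholds gave 5167 and 73, and a pseudocount of 0.1 FPKM gave 1054. The share of higher genes among those called was 44.6%, between 38.2% at 4-fold and 52% with no fold threshold. Every other setting kept these counts within 1.5 times. Signs were followed for the named genes only, and no named gene that was called changed sign. Under 1 setting or more, 6 named genes near 0 did without being called in any of them (Fosl2, Ptch1, Tead2, Jup, Rxrb and Cd81). Fosl2 reached 0.55 without E12.5_GC library 3 and Ptch1 -0.23 without E12.5_GC library 2. Leaving out each library in turn gave 2314 to 2398 called genes, 1002 to 1087 higher, 1283 to 1315 lower and 575 to 588 between days 4 and 6. With the replicate block 2354 genes were called, and the block changed no other call of a named gene or list. Of the 64 counts of list members in each direction, the stricter filter at 5 FPKM moved 8 by more than 1.5 times, through fewer genes tested, the largest being 9 lower macrophage and mast cell markers that became 2. A pseudocount of 0.1 FPKM moved 9 of them, and the cause was not tested. Star, Epor, Slc23a2 and Map2 each lost their call without 1 E12.5_GC library, at -0.99 (library 2), -0.87 (library 1), -0.99 and -0.99 (both library 3), as did Pfkl without library 2, where it lay at the fold threshold. The estimated depth of 19600000 to 27800000 fragments and the 3 libraries per group limit what can be seen in genes near 1 FPKM.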

Other observations

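Genes of the cell cycle were more often higher than lower at day 4. Of 26 listed, all tested, 12 were higher and 3 lower, with a median log2 fold change of 0.77 beside 0.03 over all genes. Cdkn2a, which encodes the inhibitor p16 and the Mdm2-binding protein Arf, stood at 44, 44.1 and 41 FPKM at day 4 and at 0.0921, 0.0727 and 0.0436 FPKM in E12.5_GC (5.36 ± 0.06, SE, limma adjusted p = 9.46e-18). Its neighbour Cdkn2b, the inhibitor p15, had 26.2, 22.6 and 20.6 FPKM against 1.09, 0.491 and 0.588 FPKM (3.82), and Cdkn1a, the inhibitor p21, was higher by 2.42. Cdkn1b, the inhibitor p27, had 10.8, 11.3 and 11.4 FPKM against 72.6, 66.3 and 82.3 FPKM (-2.62), and the D-type cyclin Ccnd2 was lower by -2.26. The other 9 higher genes, cyclins and genes of mitosis, lay between 1.16 for Ccna2 and 1.90 for Ccne1, both named after their values were seen. The replication genes Pcna (0.23), Mcm7 (0.74) and Mcm6 (-0.13) were not called.

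Of 24 listed imprinted genes 18 were tested. At day 4, 2 were higher and 5 lower, and the median was -0.40. Cdkn1c, the imprinted inhibitor p57, stood at 27.8, 25.9 and 24.4 FPKM against 514, 662 and 413 FPKM (-4.27), and Ndn, necdin, at 11.7, 11.1 and 10.7 FPKM against 54.8, 68.4 and 43.7 FPKM (-2.20). Igf2, the fetal growth factor, was lower by -1.62 and the zinc finger gene Zim1 by -1.71. Slc38a4, an amino acid transporter, was higher beside Peg10, with 214, 201 and 204 FPKM against 38.3, 30.7 and 37.1 FPKM (2.52). Mest (0.17), Peg3 (0.68) and Nnat (-0.42) did not pass.

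Of 20 tested glucose uptake and glycolysis genes 2 were higher and 5 lower, the median being -0.24. Over all genes tested 9.13% were higher and 11.3% lower, so lower calls were more frequent in this list. The 2 higher genes were glucose transporters, Slc2a3 with 145, 137 and 135 FPKM against 3.65, 2.68 and 2.81 FPKM (5.12) and Slc2a1 (1.98). Ldhb, the heart-type lactate dehydrogenase subunit, had 27.7, 28.4 and 24.5 FPKM against 428, 553 and 351 FPKM (-3.97), and its paralogue Ldha was lower by -1.29. Tpi1 was lower by -1.19, and Pkm (-0.15) and Pgam1 (-0.11) were not called. Cd63, the tetraspanin by which the study sorted induced cells, stood at 50.5, 49 and 46.2 FPKM at day 4 and at 56.2, 81.8 and 50.9 FPKM in E12.5_GC (-0.34, not called), while of the 15 tetraspanins Cd9 (2.12) and Tspan13 (1.41) were higher and Cd82 (-2.43) and Tspan7 (-1.95) lower.

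Of 11 tested genes of intermediate mesoderm, the tissue that gives kidney and gonad, the counts were 3 higher and 4 lower and the median 0.53. The duct genes Pax8 and Ret were at 0.1 to 0.145 FPKM and 0.39 to 0.444 FPKM in the day 4 libraries, against 2.55 to 2.97 FPKM and 3.69 to 4.23 FPKM. Osr1 (0.59), an early factor of this tissue, was not called. Of 5 tested testis and steroidogenic genes 1 was higher and 2 lower, or 1 lower without E12.5_GC library 2. Hsd3b1, a steroidogenic enzyme, was listed at 0 in every day 4 library and stood at 6.79, 14 and 4.93 FPKM in E12.5_GC, and Star, the cholesterol carrier of steroid cells, was lower by -1.20. Sox9, the testis determinant that epithelia also use, had 8.14, 7.61 and 8.04 FPKM against 17, 8.37 and 7.52 FPKM (-0.34, not called). Of 5 tested neural genes 1, Map2, was lower (-1.06), but not with quantile normalization (-0.88) or without E12.5_GC library 3 (-0.99). The 6 sex chromosome genes listed as a check of labels were not analysed here.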
